A study of Mus musculus with 6 samples.

Results

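The Hox genes are the homeobox genes of the HoxA, HoxB, HoxC and HoxD clusters, taken here as every gene of the deposited table whose symbol is Hox, a cluster letter and a number. The rule gave 39 of the 24421 genes in the table, 11 from HoxA, 10 from HoxB, 9 from HoxC and 9 from HoxD. Their RNA was compared between 3 mammary tumours and 3 mammary glands. All donors were female FVB/NJ mice of 5 months transgenic for the long non-coding RNA LINK-A. The tumour donors are labelled FVB/NJ; MMTV-Tg(LINK-A), where MMTV is the mouse mammary tumour virus promoter, which drives expression mainly in mammary epithelium. The gland donors are labelled FVB/NJ; Tg(LINK-A), so that genotype and tissue cannot be told apart here. The labels do not say that the 3 libraries of a group came from separate animals, and the p-values cover no more than the spread among these libraries.

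Hox proteins are transcription factors that bind DNA through the homeodomain, most often together with cofactors of the PBX and MEIS families. Their genes lie in the clusters in the order in which they are switched on along the head-to-tail axis of the embryo, and genes with the same number in different clusters, called paralogues, are the most alike. Adult mesenchymal cells such as fibroblasts and fat cell precursors keep a Hox pattern that records their position in the body. In the mammary gland, Hoxc6 and Hoxc8 have been linked to where and how the gland forms, and the group 9 genes to its growth in pregnancy.

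Hox RNA was low in all libraries and, on the deposited scale, lower in the tumours. Relative to fibroblast markers the sign of the fold changes depended on the amount added before the log, as given below. The FPKM values, which are fragments scaled to transcript length and library size and so can be compared between genes, summed over the Hox genes to 97.3, 85.5 and 95.1 in glands 1 to 3 and to 9.46, 9.90 and 4.29 in tumours 1 to 3. No tumour sum reached a gland sum. Of the 39 genes, 28 were above 0 in every gland and 11 were above 0 in every tumour. The 19 genes whose 6 libraries averaged 1 FPKM or more were tested, and 19 of 19 fell in the tumours at an adjusted p under 0.05 (limma on log2(FPKM + 1), Benjamini-Hochberg over all tested genes). Among all 13364 tested genes, 23.1% fell and 45.1% were called in either direction. On the same scale relative to fibroblast markers, 16 of the 19 had a positive fold change and 3 passed as higher, where 11772 of all tested genes did. That scaling adds the same amount to every fold change, and on log2(FPKM + 1) a low gene can fall only a little. A gene with a low gland level therefore turns positive there even at 0 in every tumour, so its sign does not give a direction. With a pseudocount of 0.1 in place of 1 in that scaling, 6 of the 19 were positive, 3 passed as lower and 0 as higher. The count of 19 is fixed in part by the filter, because all 19 had a tumour mean under 1 FPKM and were tested only through their gland level, and it is given as a description. Without the filter, 27 of the 29 Hox genes with any signal were lower at the same threshold and 0 were higher, where 20.9% of 18174 genes were lower. Every gland was above every tumour for 27 of the 28 genes measured in every gland, an order found in 32.9% of all 15317 such genes.

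**Figure D1:**
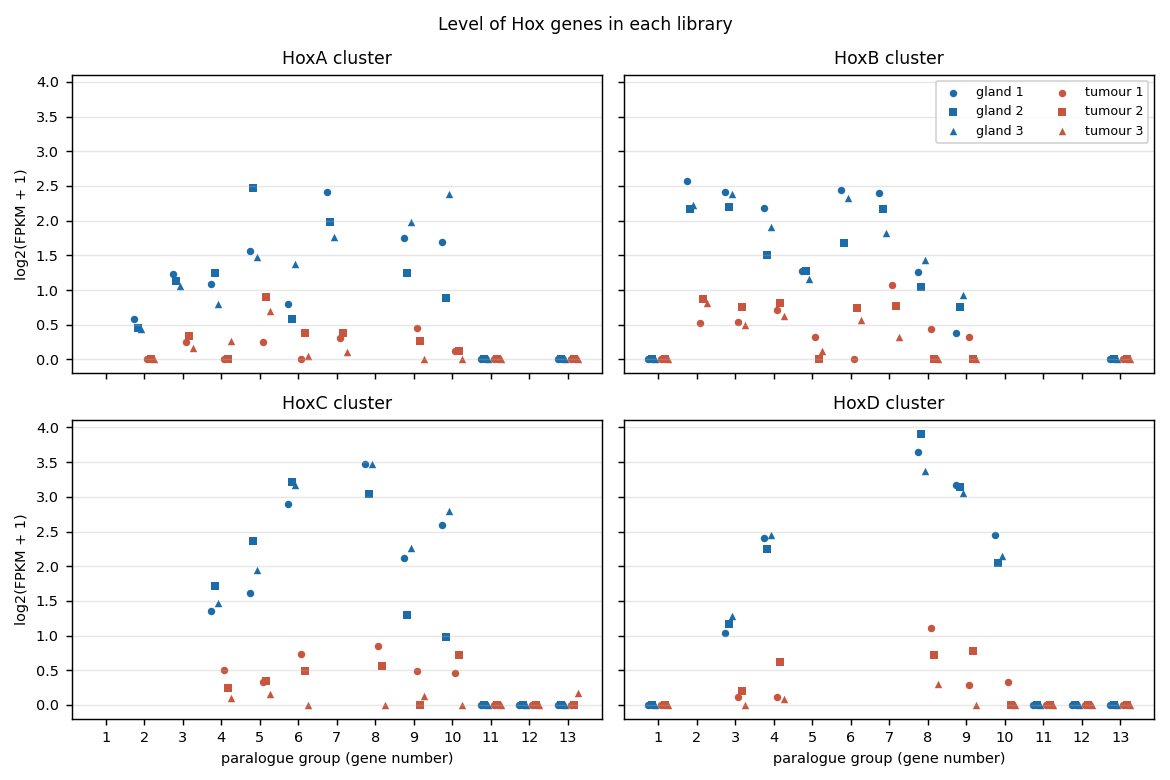
Level of the Hox genes on the log2(FPKM + 1) scale in glands 1 to 3 (blue) and tumours 1 to 3 (red), by cluster and by the number in the gene's name. On the deposited scale, gland points lie above tumour points for all genes shown that were measured in every gland. Relative to fibroblast markers, not plotted here, the sign of the fold changes depended on the pseudocount. Groups 11 to 13 lie at 0 in every gland.

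The position of a gene in its cluster went with whether it was measured at all, as the plot of Hox levels by library shows. All 20 genes of groups 2 to 8 and all 7 genes of groups 9 and 10 were above 0 in every gland. In contrast, all 9 genes of groups 11 to 13, which pattern the limbs, the tail end and the urogenital tract, were listed at 0 in every gland. Of these 9, 8 were listed at 0 in the tumours too, and Hoxc13, a gene of hair follicles and nails, stood at 0.130 FPKM in tumour 3 only. Hoxb1 and Hoxd1 were also listed at 0 in all 6 libraries. Whether a value of 0 in this table is a failed estimate or an absence of RNA is not known. For that reason a gene is said only to be listed at 0. Of 77 ribosomal protein genes, taken by name, 3 were at 0 in at least 1 library and 1 of them in all. Whether those 3 are expressed in this tissue was not tested. Reads per library were not recoverable from the values, and the precision of levels this low is therefore unknown.

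The HoxD cluster (chromosome 2, 74668310 to 74765142, mm10) held the highest Hox level and the sequences shown here. Hoxd8, Hoxd9 and Hoxd10 lie side by side on the plus strand and fell in the same direction, and the DNA upstream of their RefSeq starts is given to show what these neighbours hold where transcription begins. Capitals mark TAAT or its reverse complement ATTA, the core that homeodomains bind. The sequences come from RefSeq (GRCm38.p6, the assembly also called mm10), plus strand, 5′ to 3′, at chr2:74704365-74704614 for Hoxd8, chr2:74697587-74697726 for Hoxd9 and chr2:74691641-74691890 for Hoxd10. The Hoxd9 window is shorter because bases in annotated exons were left out.

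Hoxd8: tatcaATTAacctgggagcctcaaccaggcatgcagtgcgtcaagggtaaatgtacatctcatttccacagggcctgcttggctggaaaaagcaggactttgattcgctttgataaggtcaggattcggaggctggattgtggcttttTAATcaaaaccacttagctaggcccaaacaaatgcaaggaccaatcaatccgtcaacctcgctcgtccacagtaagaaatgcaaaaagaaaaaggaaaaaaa

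Hoxd9: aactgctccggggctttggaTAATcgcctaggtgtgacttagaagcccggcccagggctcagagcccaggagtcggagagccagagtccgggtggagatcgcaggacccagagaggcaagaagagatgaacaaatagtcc

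Hoxd10: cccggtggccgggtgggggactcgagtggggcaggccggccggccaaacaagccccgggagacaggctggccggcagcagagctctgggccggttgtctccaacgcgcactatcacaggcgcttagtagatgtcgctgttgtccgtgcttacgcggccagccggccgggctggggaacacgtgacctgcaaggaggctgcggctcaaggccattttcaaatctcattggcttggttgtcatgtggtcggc

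The Hoxd8 window held 2 matches of TAAT on either strand, the Hoxd9 window 1 and the Hoxd10 window 0. The Hoxd10 window held 20 CpG dinucleotides and was 65.6% G and C, against 6 CpG and 44.4% for Hoxd8. RefSeq promoters were found for 22 of the 39 Hox genes, with 24 entries. TAAT, searched on both strands in the 250 bases before the start, was in 18 of the 24 and in 54.9% of all 32851 promoters. TGATNNAT, the form bound by PBX with a Hox partner, was in 4 of 24 against 7.68%. It can contain TAAT within it. The nuclear receptor core AGGTCA, which retinoic acid receptors bind, was in 6 of 24 against 14.02%. TATAAA was in 4 of 24 against 12.4%. The median Hox promoter held 12.5 CpG dinucleotides and 58.6% G and C, against 6 and 52.4% for all promoters. These matches describe the sequence only.

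Hoxd8 (chromosome 2, 74704615 to 74707933), which takes part in patterning the trunk, had gland levels (1 to 3) of 11.6, 14.04 and 9.38 FPKM and tumour levels (1 to 3) of 1.15, 0.654 and 0.229 FPKM. It was the highest Hox gene of the glands, and its lowest gland was above its highest tumour. Its log2 fold change was -2.94 (SE 0.25, adjusted p = 1.88e-04 by limma), on the log2(FPKM + 1) scale that holds for every fold change here and that understates the change of low genes. Hoxd9 (74697727 to 74700208), a group 9 gene, was even across the glands at 8.02, 7.80 and 7.30 FPKM. It stood at 0.225 and 0.713 FPKM in tumours 1 and 2 and was listed at 0 in tumour 3 (log2 fold change -2.76, SE 0.22, adjusted p = 1.57e-04). Hoxd10 (74691924 to 74695105), a gene of the hindlimb and lumbar spinal cord, stood at 4.48, 3.13 and 3.43 FPKM in the glands. Only tumour 1 had a value for it, 0.252 FPKM, and tumours 2 and 3 were listed at 0 (log2 fold change -2.11, SE 0.20, adjusted p = 3.16e-04). Hoxd10 overlaps the annotated gene Gm28309 on the same strand, so the division of their reads is uncertain. Hoxd4, a neck-level gene, stood at 4.31, 3.76 and 4.45 FPKM in the glands and 0.0781, 0.539 and 0.0616 FPKM in the tumours, with tumour 2 the highest tumour. Its log2 fold change was -2.10 (SE 0.21, adjusted p = 3.58e-04). It shares exons with Hoxd3 on the same strand, so the division of their reads is uncertain. Hoxd3 was under the filter, at 1.05, 1.24 and 1.42 FPKM in the glands and at most 0.155 FPKM in the tumours.

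In the HoxC cluster (chromosome 15, 102921103 to 103036852), the 6 genes from Hoxc4 to Hoxc10 were measured in every gland and fell on the deposited scale. Hoxc8 (102990607 to 102994111), a thoracic gene that is also used as a marker of white over brown fat, stood at 10.1, 7.19 and 10.1 FPKM in the glands. In the tumours it stood at 0.796 and 0.474 FPKM and was listed at 0 in tumour 3. Its log2 fold change was -2.85 (SE 0.26, adjusted p = 2.43e-04), next to that of Hoxd8 in size. Hoxc6 (102998257 to 103011881), a gene that responds to ovarian hormones in the gland, stood at 6.43, 8.29 and 7.99 FPKM in the glands, against 0.657, 0.408 and 0 FPKM in the tumours. It fell by 2.69 on the log2 scale (SE 0.23, adjusted p = 1.89e-04). Hoxd8, Hoxc8, Hoxd9 and Hoxc6 were the 4 highest Hox genes of the glands, and Hoxc6 was separated from the next, Hoxd4. This was the single step in the order of gland levels at which the 3 glands did not overlap, while the other 26 of 27 neighbouring pairs overlapped. Hoxc4 and Hoxc5, neck-level genes, had lower levels. Hoxc5 stood at 2.07, 4.13 and 2.85 FPKM in the glands, against 0.259, 0.274 and 0.115 FPKM in the tumours. Hoxc4 stood at 1.57, 2.28 and 1.78 FPKM in the glands, against 0.415, 0.188 and 0.0699 FPKM in the tumours. Their log2 fold changes were -1.69 (SE 0.23, adjusted p = 0.00138) and -1.23 (SE 0.21, adjusted p = 0.00318). Hoxc5 shares an annotated exon with Hoxc10, and their split of reads is uncertain.

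Hoxc9 and Hoxc10, of the lower trunk and hindlimb level, differed between the glands. Hoxc10 had 5.03, 0.964 and 5.95 FPKM in glands 1 to 3, so that gland 2 was far below the others, and 0.370, 0.644 and 0 FPKM in the tumours. It fell by 1.73 on the log2 scale (SE 0.49), with the highest adjusted p of the tested Hox genes by limma, 0.0266. That call was lost without any single library other than gland 2, with log2 fold changes of -1.89 to -1.39 and adjusted p between 0.0512 and 0.0899, and after quantile normalization (-1.42, adjusted p = 0.0634). Without gland 2 it fell by 2.30 with an adjusted p of 0.0018. Hoxc9, another marker of white fat, stood at 3.33, 1.47 and 3.79 FPKM in the glands, against 0.409, 0 and 0.0917 FPKM in the tumours (log2 fold change -1.69, SE 0.30, adjusted p = 0.00416).

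The HoxA cluster (chromosome 6, 52155590 to 52260880) had 9 genes above 0 in every gland, at lower levels, and 4 of them were tested. Hoxa7, a thoracic gene, stood at 4.34, 2.94 and 2.40 FPKM in the glands, against 0.243, 0.308 and 0.0808 FPKM in the tumours. It fell by 1.78 on the log2 scale (SE 0.22, adjusted p = 9.42e-04). Hoxa5, an activator of Trp53 that is often silenced in human breast tumours, stood at 1.97, 4.56 and 1.79 FPKM in the glands, against 0.189, 0.861 and 0.625 FPKM in the tumours. Gland 2 held more than the other glands, and all glands were above all tumours. Its log2 fold change was -1.23 (SE 0.32, adjusted p = 0.020), and the call was lost without tumour 1 (adjusted p = 0.0567) and after quantile normalization (adjusted p = 0.119). Hoxa9, which takes part in blood cell growth as well as patterning, stood at 2.35, 1.37 and 2.93 FPKM in the glands, against 0.367, 0.206 and 0 FPKM in the tumours (log2 fold change -1.41, SE 0.25, adjusted p = 0.00432). Hoxa10, needed in the uterus, stood at 2.24, 0.850 and 4.20 FPKM in the glands, against 0.0907, 0.0879 and 0 FPKM in the tumours (log2 fold change -1.57, SE 0.37, adjusted p = 0.0132). For both, gland 2 was the lowest gland and still above every tumour.

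Other HoxA genes were under the filter. Hoxa3, Hoxa4 and Hoxa6, of neck and upper trunk level, lay between 0.503 and 1.58 FPKM in the glands and at most 0.30 FPKM in the tumours. Hoxa2, which sets the identity of the second pharyngeal arch, was listed at 0 in all tumours and stood at 0.504, 0.366 and 0.351 FPKM in the glands, and it was the only Hox gene measured in every gland and in no tumour.

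The HoxB cluster (chromosome 11, 96194316 to 96368256) kept the most signal of the 4 clusters in every tumour, with sums of 3.50, 3.65 and 2.53 FPKM against 24.6, 17.8 and 20.98 FPKM in the glands. Hoxb2, a gene of the hindbrain segments, stood at 4.97, 3.51 and 3.66 FPKM in the glands, against 0.433, 0.825 and 0.758 FPKM in the tumours, a 6.02-fold difference of means. Hoxb3 stood at 4.32, 3.596 and 4.20 FPKM in the glands, against 0.447, 0.684 and 0.417 FPKM in the tumours, a 7.83-fold difference. Hoxb4, known for the self-renewal of blood stem cells, stood at 3.55, 1.85 and 2.74 FPKM in the glands, against 0.645, 0.749 and 0.548 FPKM in the tumours, a 4.19-fold difference. All 3 were measured in every tumour, with means of 0.672 ± 0.210, 0.516 ± 0.146 and 0.647 ± 0.101 FPKM there (SD, n = 3). Their log2 fold changes were -1.59 (SE 0.19, adjusted p = 8.04e-04), -1.73 (SE 0.17, adjusted p = 3.16e-04) and -1.15 (SE 0.22, adjusted p = 0.00527). Reads of Hoxb2 and Hoxb3 may be shared with the antisense gene Hoxb3os, since no source used here says that counting used the strand.

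Hoxb7, which has been reported as raised in human breast cancers, was lower here, at 4.25, 3.50 and 2.55 FPKM in the glands and 1.11, 0.709 and 0.248 FPKM in the tumours. It fell by 1.41 on the log2 scale (SE 0.26, adjusted p = 0.00452). Hoxb6 stood at 4.41, 2.18 and 4.002 FPKM in the glands, against 0, 0.680 and 0.476 FPKM in the tumours, and was the only tested HoxB gene listed at 0 in a tumour. Its log2 fold change was -1.71 (SE 0.29, adjusted p = 0.00351). Hoxb5, Hoxb8 and Hoxb9 were under the filter, between 0.305 and 1.70 FPKM in the glands and at most 0.356 FPKM in the tumours.

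The make-up of the remaining Hox RNA differed between the tissues, a pattern that was noticed in the values and was not tested. HoxB made up 25.3%, 20.8% and 22.1% of the summed Hox FPKM in glands 1 to 3 and 37.0%, 36.8% and 58.9% in tumours 1 to 3. HoxD made up 30.2%, 35.1% and 27.3% in the glands and 18.9%, 20.8% and 6.76% in the tumours. The groups did not overlap for either cluster. HoxA and HoxC overlapped, HoxA at 15.2% to 16.5% in the glands and 13.4% to 24.8% in the tumours and HoxC at 28.4% to 34.1% and 9.47% to 30.7%. These shares do not depend on the scaling of a library, although they do rest on tumour values that are mostly under 1 FPKM.

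Tumour 3 stood apart from the other tumours. It held the single lowest tumour value for 17 of the 28 genes measured in every gland, against 4 for tumour 1 and 2 for tumour 2, and the lowest value was shared for 5. It was listed at 0 for 12 of the 28, tumour 2 for 7 and tumour 1 for 4. Over the whole table, 15000, 15749 and 15246 genes were above 0 in tumours 1 to 3, so that tumour 1 had the most zeros. The share of all genes with their lowest tumour value in tumour 3 was not counted. The fibroblast markers, 12 genes of the connective tissue of the gland, summed to 179 FPKM in tumour 3 and to 516 and 598 FPKM in tumours 1 and 2. The adipocyte markers summed to 50.6 FPKM in tumour 3 and to 267 and 255 FPKM in the others. Their part in the lower Hox values of tumour 3 was not tested. Without tumour 3, 18 of the 19 tested Hox genes were lower past the threshold, and the call lost was that of Hoxc10.

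**Figure D2:**
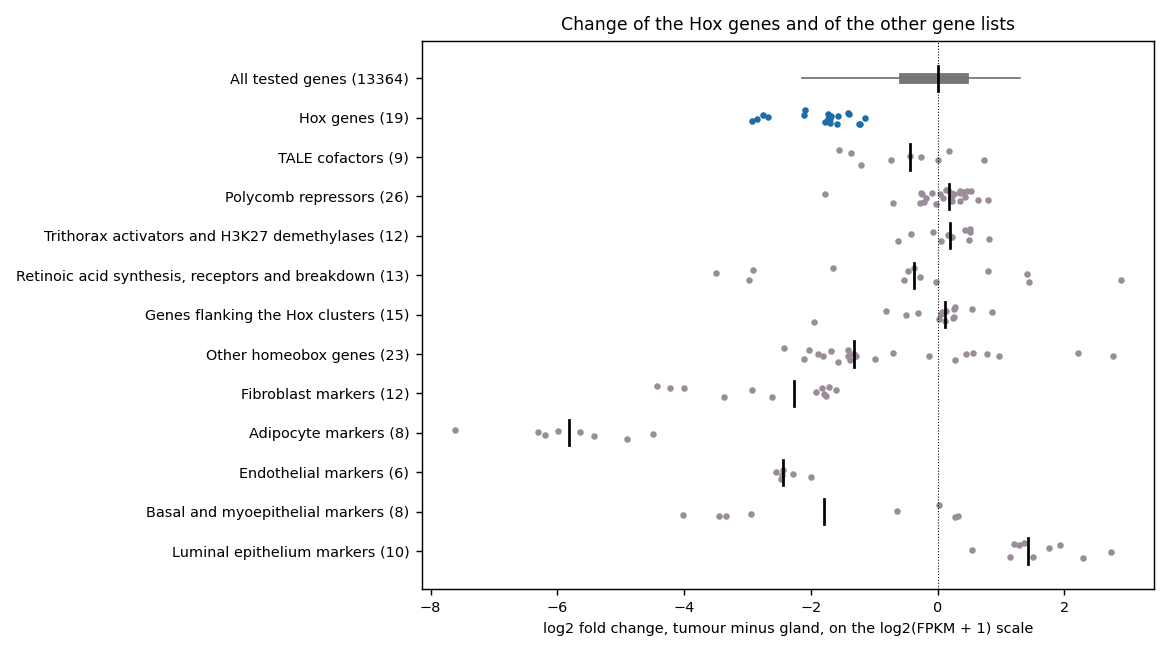
Log2 fold change, tumour minus gland, of each tested gene (points) in the Hox family and in the comparison lists, with the number tested in brackets. Black lines are list medians, not drawn for the Hox genes because the filter selects them, and for all tested genes the thick bar spans the 25th to 75th and the thin line the 5th to 95th percentile. The Hox genes lie between -2.94 and -1.15 on this scale, where the fibroblast markers have a median of -2.27. The scale understates the change of low genes such as the Hox genes, so these sizes cannot be compared. Relative to those markers the sign of the Hox fold changes depended on the pseudocount.

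Markers of the connective tissue and fat of the gland moved with the Hox genes, as the plot of the gene lists shows. All 12 fibroblast markers fell, with a median log2 fold change of -2.27, and all were above 0 in every tumour. Their sum was 2371 to 2573 FPKM in the glands and 179 to 598 FPKM in the tumours. Pdgfra, a receptor that defines fibroblasts, fell by 3.38 (SE 0.31, adjusted p = 2.86e-04), from 25.7, 27.5 and 25.8 FPKM to 2.25, 2.62 and 0.542 FPKM. All 8 adipocyte markers fell (median -5.82), and their sum was 7189 to 8536 FPKM in the glands and 50.6 to 267 FPKM in the tumours, with Retn listed at 0 in tumour 3. All 6 endothelial markers fell (median -2.45), from sums of 161 to 183 FPKM to 19.5 to 37.5 FPKM. Of the 8 basal and myoepithelial markers 4 fell and 4 did not pass. All 10 luminal epithelium markers rose (median 1.43), from 1258 to 1334 FPKM in sum to 3419 to 3720 FPKM. The median over all 13364 tested genes was 0.01. In bulk tissue, fewer cells of a type and less RNA per cell cannot be told apart. The part of the fat and vessel markers in the Hox values was not tested.

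Set against the fibroblast markers, the Hox values depended on the measure. Per 1000 FPKM of summed fibroblast markers, the Hox genes summed to 41.0, 33.2 and 38.96 FPKM in the glands and to 18.3, 16.5 and 24.0 FPKM in the tumours, and the groups did not overlap. On the log2(FPKM + 1) scale, relative to the mean log value of the same markers, 0 of the 19 tested Hox genes were lower and 3 were higher, namely Hoxa5, Hoxb4 and Hoxc4. These 3 had gland levels so low that on this scale they would be positive even at 0 in every tumour. With a pseudocount of 0.1 in place of 1, an alternative chosen after seeing the data, 3 were lower (Hoxc6, Hoxc8 and Hoxd9) and 0 higher. These limma counts were the same, 0 and 3 and then 3 and 0, at an unadjusted p under 0.05. Relative to the luminal epithelium markers, 19 of 19 were lower. Over all tested genes these scalings turned 2933 higher and 3090 lower calls into 11772 and 91 relative to the fibroblast markers, and into 195 and 12379 relative to the luminal markers.

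**Figure D3:**
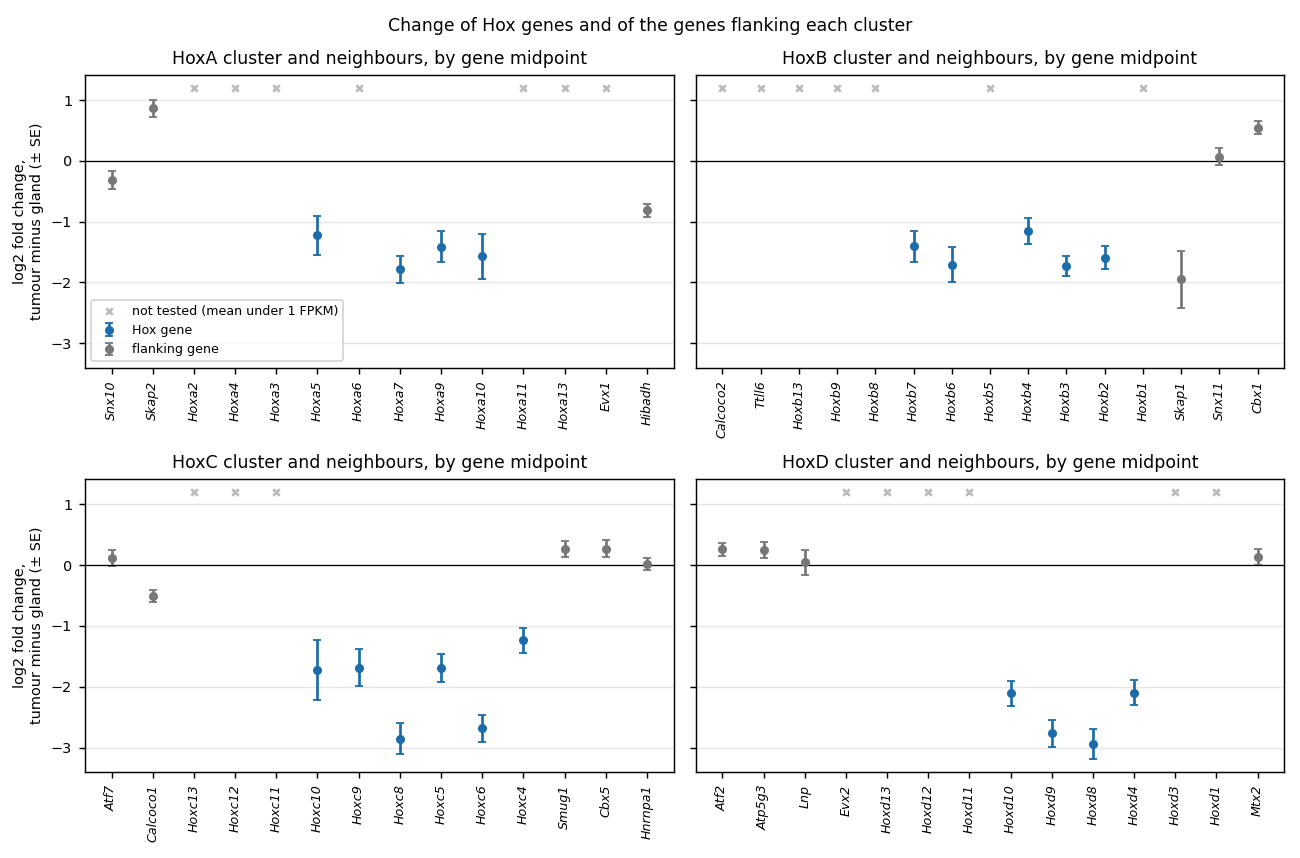
Log2 fold change, tumour minus gland, with its standard error, for the Hox genes (blue) and listed genes up to 775.7 kb from a cluster (grey), ordered along the chromosome by gene midpoint. Crosses at the top mark genes not tested. The tested Hox genes lie at or below -1.15 on this scale, and most tested neighbours lie between -0.50 and 0.54. Relative to the fibroblast markers, not plotted here, the sign of the Hox fold changes depended on the pseudocount.

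The listed genes around the clusters did not move as a block with them, as the plot along each cluster shows. Of 15 tested neighbours 2 rose, 3 fell and 10 did not pass, with a median log2 fold change of 0.12. These 15 lie between 60.7 kb (Mtx2) and 775.7 kb (Atf2) from a cluster. The nearer Evx2, Ttll6 and Evx1, at 8.8, 28.9 and 52.6 kb, were listed at 0 in all libraries and not tested. Skap2, an adaptor protein gene 143 kb from HoxA, rose by 0.86 (SE 0.14, adjusted p = 0.00322), from 29.1, 22.2 and 28.6 FPKM to 51.5, 42.8 and 52.8 FPKM. On the other side of HoxA, Hibadh, an enzyme of valine breakdown, fell by 0.81 (SE 0.10, adjusted p = 0.00107). Mtx2, a mitochondrial import gene beside the Hoxd1 end of HoxD, stood at 30.3, 35.0 and 35.2 FPKM in the glands, against 40.9, 38.7 and 31.5 FPKM in the tumours, and did not pass (log2 fold change 0.14, adjusted p = 0.434). Cbx1, a heterochromatin protein gene 420.9 kb from HoxB, rose by 0.54 (SE 0.10, adjusted p = 0.00582), and Calcoco1, 198.9 kb from HoxC, fell by 0.50 (SE 0.10, adjusted p = 0.00619). Skap1, a T cell adaptor gene beside Hoxb1 that is named after its values were seen, stood at 6.999, 2.47 and 7.02 FPKM in the glands, against 1.75, 0.405 and 0 FPKM in the tumours, and fell by 1.95 (SE 0.47, adjusted p = 0.0144). The lymphocyte markers, given below for the glands, were likewise lowest among the glands in gland 2. They summed to 67.8, 55.7 and 2.83 FPKM in tumours 1 to 3, so that tumour 3 was lowest of all. Gland 2, at 54.6 FPKM, was below tumours 1 and 2 in this sum, while for Skap1 it was above every tumour. The part of these markers in the Skap1 values was not tested. Inside the clusters, 15 non-coding genes were in the table and 7 were listed at 0 in all libraries. Hotairm1, an RNA read from the opposite strand inside HoxA, was the 1 tested, at 7.57, 3.71 and 8.54 FPKM in the glands and 1.75, 1.22 and 0 FPKM in the tumours. It fell by 1.99 (SE 0.44, adjusted p = 0.00981).

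The DNA-binding partners of Hox proteins were split. Of 9 tested TALE cofactors, the PBX, MEIS and PKNOX family, 4 fell, 1 rose and 4 did not pass (median -0.43). Pbx2 stood at 18.9 to 24.9 FPKM in the glands and 20.6 to 24.4 FPKM in the tumours and did not pass (adjusted p = 0.992). Meis3 fell by 1.56 (SE 0.30, adjusted p = 0.00602), Pknox2 by 1.36 (SE 0.23), Meis2 by 1.22 (SE 0.19) and Meis1, a partner of the posterior Hox proteins, by 0.74 (SE 0.23, adjusted p = 0.0360). All 4 had every gland above every tumour, as did Pbxip1, which did not pass. That order held for 29.0% of all tested genes.

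Most tested chromatin regulators that hold Hox genes off or on did not pass the test. Of 26 tested Polycomb repressors 6 rose, 2 fell and 18 did not pass (median 0.18), where 21.9% of all tested genes rose and 23.1% fell. The 6 rises became 1 with a common sum per library and 3 without gland 1, gland 2 or tumour 2. Ezh2, the methyltransferase that writes the repressive H3K27 mark on silent Hox clusters, stood at 12.7, 10.1 and 11.4 FPKM in the glands and 19.6, 19.5 and 22.4 FPKM in the tumours. It rose by 0.80 (SE 0.12, adjusted p = 0.00235), and every tumour was above every gland. Cbx7, a reader of that mark, fell by 1.78 (SE 0.19), from 11.5, 9.11 and 9.56 FPKM to 2.41, 2.81 and 1.53 FPKM, and Cbx6 fell by 0.70 (SE 0.13). Rbbp4, at 37.7 to 42.6 and 39.6 to 46.4 FPKM, did not pass. Of 12 tested Trithorax activators and H3K27 demethylases 5 rose, 1 fell and 6 did not pass (median 0.20). The 5 rises became 1 with a common sum per library, 3 without gland 1 and 2 without gland 3, and the 1 fall was lost after quantile normalization and without gland 1 or gland 3. Men1, a part of the methyltransferase complex that keeps Hox genes on, rose by 0.52 (SE 0.12, adjusted p = 0.0112) and Wdr5, of the same complexes, by 0.49 (SE 0.11, adjusted p = 0.00940), while Kmt2c fell by 0.63 (SE 0.16, adjusted p = 0.0153). The calls of Men1 and Wdr5 were lost with a common sum per library (adjusted p = 0.0581 and 0.0617), that of Men1 also without gland 3 (adjusted p = 0.0507). That of Kmt2c was lost after quantile normalization (adjusted p = 0.097) and without gland 1 or gland 3 (adjusted p = 0.0662 and 0.0608).

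Retinoic acid switches on the front end of the Hox clusters in the embryo, and the genes of its pathway moved in both directions. Of 13 tested genes 4 rose, 4 fell and 5 did not pass (median -0.38), and without tumour 3 there were 7 falls. Rdh10, the enzyme that makes retinaldehyde, rose by 1.45 (SE 0.12, adjusted p = 1.74e-04), from 6.68, 6.08 and 6.87 FPKM to 18.0, 18.9 and 21.9 FPKM. Crabp2, which carries retinoic acid to its receptor, rose by 1.41 (SE 0.13), from 53.5 to 61.4 FPKM in the glands to 137 to 178 FPKM in the tumours. Crabp1, a binding protein that holds it in the cytoplasm, fell by 3.50 (SE 0.23) to between 0.604 and 1.76 FPKM. Rxrg stood at 4.92, 9.31 and 6.92 FPKM in the glands and was listed at 0 in all tumours. The receptors Rarg and Rxra did not pass, with log2 fold changes of -0.47 and -0.29. Among other upstream regulators, Cdx1, Cdx2 and Cdx4, which switch on the middle Hox genes in the embryo, were listed at 0 in all 6 libraries. Egr2, a hindbrain activator of Hoxb2, fell by 1.57 (SE 0.15, adjusted p = 3.35e-04), Gdf11, a secreted factor that sets the posterior Hox boundary, by 1.29 (SE 0.22) and Zbtb16 by 0.86 (SE 0.19), whose call was lost after quantile normalization (adjusted p = 0.0913). Yy1 was 0.42 higher on the log2 scale (SE 0.11, adjusted p = 0.0186), a call that was lost with a common sum per library (adjusted p = 0.0871) and without gland 1, gland 2 or gland 3 (adjusted p = 0.0561, 0.0523 and 0.07).

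**Figure D4:**
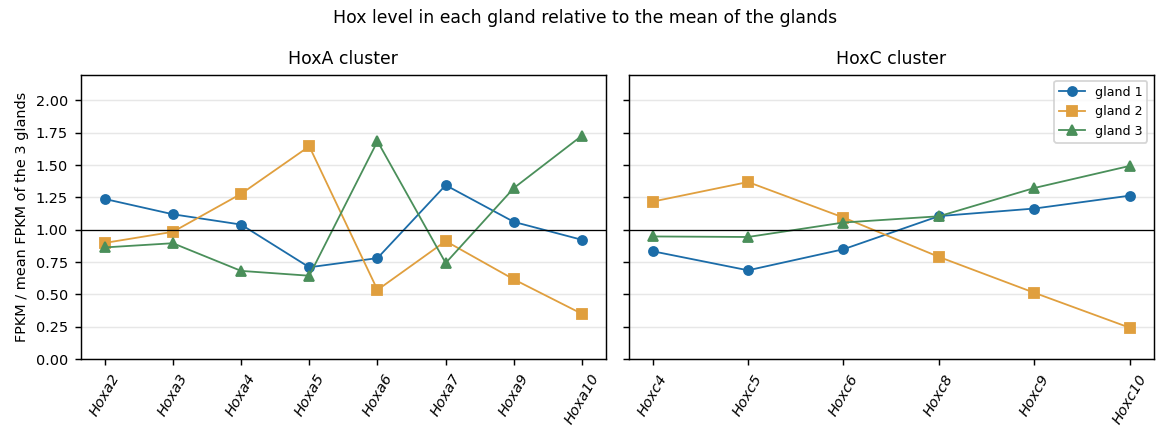
Level of HoxA and HoxC genes in glands 1 to 3, divided by the mean of the 3 glands, in order of the number in the gene's name. In HoxC, gland 2 (squares) goes from above 1 at Hoxc4 to Hoxc6 to below 1 at Hoxc8 to Hoxc10.

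The glands themselves differed in Hox pattern, as the plot of gland levels by gene number shows, and this was seen in the values and not tested. The level in gland 2 over the mean of glands 1 and 3 was 1.37 for Hoxc4, 1.68 for Hoxc5 and 1.15 for Hoxc6, and then 0.715 for Hoxc8, 0.412 for Hoxc9 and 0.176 for Hoxc10. In HoxA the same ratio was 1.48 for Hoxa4 and 2.43 for Hoxa5, and 0.517 for Hoxa9 and 0.264 for Hoxa10, with Hoxa6 between them at 0.434. It was 0.855 for Hoxa2, 0.976 for Hoxa3 and 0.874 for Hoxa7. Of the 7 genes of groups 9 and 10, gland 2 was the lowest gland for 5 and the highest for 0. Of the 10 genes of groups 4 to 6, it was the highest for 5 and the lowest for 4. Hoxd9, at 1.02, and Hoxb9, at 1.13, did not follow the HoxA and HoxC values. Gland 2 also stood apart in markers of other tissues: lymph node and lymphocyte markers summed to 54.6 FPKM there and to 279 and 271 FPKM in glands 1 and 3, and skeletal muscle markers to 11337 FPKM against 13.2 and 1015 FPKM. Their part in the pattern was not tested, and the labels do not say from which pair of glands the tissue was taken. With glands 1 and 3 left out, gland 2 was the lone gland and was assumed to vary as the tumours do, so that the spread came from the tumours alone. In that fit 14 of the 19 tested Hox genes were lower past the threshold, and the calls of Hoxa9, Hoxb6, Hoxb7, Hoxc9 and Hoxc10 were lost, with adjusted p of 0.0617, 0.098, 0.0733, 0.0622 and 0.291 by limma.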

How the data were processed

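RNA of 3 mammary glands and 3 mammary tumours was measured by RNA-seq of total RNA from flash-frozen tissue. The deposited values have no unit in their header and were taken as FPKM, made by the authors, because they were not whole, not negative and summed to between 486080 and 582996 per library. Per the submitters' processing notes, HISAT2, StringTie and the build mm10 were used. No source used here gives versions or the annotation. Library depth is unknown: 591 of 6789 pairs of values under 0.3 FPKM lay on a common step, within 0.02 log2 units.

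Genes averaging 1 FPKM or more (13364 of 24421) were tested on log2(FPKM + 1), pseudocount 1, in R 4.3.3 by limma 3.58.1, its variance prior following the mean, all 6 libraries, 2-sided, Benjamini-Hochberg threshold 0.05. The fit was tested on simulated data. Tables and figures were made in Python 3.11.15 with pandas 2.3.3 and matplotlib 3.10.9. All 39 Hox symbols were placed with GENCODE M21 (GRCm38). Of 28 Hox genes above 0 in the glands, 14 had no exon overlapping another gene. An exon overlapped a gene on the same strand for 8 and an antisense gene for 9, with some in both counts. Among them, Hoxa9 overlapped Mir196b and Hoxa7 the antisense gene Hoxaas3. The members and lists were chosen with earlier results of these data known. Other genes named are, from each list, the called genes of smallest p (up to 4) and the most abundant uncalled ones (up to 2). Meis1, Skap1, the Cdx genes, Prrx1, Irx2, Irx3, Irx4, Irx5 and Tlx1 were added after their values were seen. A few genes are not reported here. Alternatives were another pseudocount, no filter, quantile normalization, a common sum, a replicate block, libraries left out, and values relative to marker genes.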

Additional observations from a re-analysis of the deposited data

How the results depend on the processing

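The count of 19 lower Hox genes was 19 with a pseudocount of 0.1, with a common sum per library and relative to luminal epithelium markers, and 17 to 19 with each library left out. It was 17 after quantile normalization, which moved the median of all tested genes to 0.11. The labels do not pair the libraries by replicate number. The deviations of same-numbered libraries had r of -0.05, -0.12 and -0.12 across genes, which with 3 libraries per group cannot exclude a pairing. With the replicate number as a block 19 Hox genes and 4728 genes in all were called. Without single libraries 4307 to 6371 genes were called, 2049 to 3130 of them higher and 2258 to 3241 lower. With glands 1 and 3 left out the calls were 2052, with 790 higher and 1262 lower, in a fit with gland 2 alone against the tumours, whose spread stands in for that of the glands. Relative to the fibroblast markers there were 11863 calls (11772 higher, 91 lower; Hox genes 0 lower and 3 higher), with the pseudocount of 0.1 as well 11461 (11231 higher, 230 lower; Hox genes 3 lower), and relative to the luminal markers 12574 (195 higher, 12379 lower).

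Relative to the fibroblast markers the log2 fold changes that turned positive were Hoxa5 1.46, Hoxa7 0.90, Hoxa9 1.27, Hoxa10 1.11, Hoxb2 1.10, Hoxb3 0.95, Hoxb4 1.54, Hoxb6 0.98, Hoxb7 1.28, Hoxc4 1.45, Hoxc5 0.99, Hoxc6 0.000143, Hoxc9 1.0, Hoxc10 0.96, Hoxd4 0.59 and Hoxd10 0.58. With the pseudocount of 0.1 as well they were Hoxa5 0.66, Hoxb2 0.38, Hoxb3 0.0593, Hoxb4 0.95, Hoxb7 0.52 and Hoxc4 0.0924. At a pseudocount of 1 the signs follow in part from the scale, on which a gene with a low gland level can fall only a little. Any other cause was not tested. Among genes that did not pass, quantile normalization turned Pbx2 to -0.0466, Rbbp4 to -0.00118 and Prrx2 to 0.0625, the common sum turned Pbx2 to -0.0634, and leaving out glands 1 and 3 turned Ctcf to 0.0599. Leaving out single libraries gave -0.107 to 0.0826 for Pbx2, -0.317 to 0.0658 for Prrx2 and -0.0456 to 0.495 for Kdm6b.

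With glands 1 and 3 left out, the calls of Meis3, Cbx6, Men1, Wdr5, Kmt2c, Yy1, Gdf11, Zbtb16, Hotairm1, Calcoco1, Cbx1 and Hibadh were also lost, and so were those of Ash2l and Rbbp7. With the replicate number as a block the Polycomb rises were 2, the Trithorax rises 3 and falls 0, and the calls of Rbbp7, Ash2l, Kmt2c and Yy1 were lost. Quantile normalization gave 2 TALE rises in place of 1. Values near 0 FPKM carry no counts, which limits every tumour level given here.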

Other observations

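Homeobox genes outside the Hox clusters also differed between the tissues. Of 50 such genes in a list chosen with earlier results known, 23 were tested, of which 14 fell, 5 rose and 4 did not pass (median log2 fold change -1.33, limma with Benjamini-Hochberg adjustment). Among all tested genes 23.1% fell and 21.9% rose. Some of the 23, such as Alx4, were tested only through their gland level, and Msx3 and Tlx1 only through their tumour level. Barx2 had 16.3, 19.7 and 18.7 FPKM in the glands, against 4.41, 4.14 and 4.01 FPKM in the tumours (log2 fold change -1.89, SE 0.12). Prrx1, a gene of mesenchymal cells, stood at 15.0, 15.9 and 15.2 FPKM in the glands, against 2.94, 2.67 and 0.967 FPKM in the tumours, with tumour 3 lowest (log2 fold change -2.42, SE 0.27). Alx4 and Lhx6 fell by 1.69 and 1.57. The Iroquois family was split. Irx2 rose from 54.5, 57.4 and 56.1 FPKM to 82.5, 93.5 and 116 FPKM (log2 fold change 0.77, SE 0.14), Irx3 rose by 0.56 and Irx5 by 0.96, Irx4 fell by 2.03 and Irx1 did not pass (0.27, adjusted p = 0.0816).

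Msx3 and Tlx1 were listed at 0 in every gland. Msx3, a gene of the dorsal spinal cord in the embryo, stood at 5.46, 6.82 and 5.18 FPKM in the tumours and Tlx1, a gene of the developing spleen, at 1.51, 2.94 and 8.98 FPKM. Both passed the test as higher.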
